A study of Mus musculus with 11 samples.

Results

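Trp53, the gene of the transcription factor p53, and 9 genes known as its targets were followed across 11 mouse tumours. The targets were Mdm2, Ccng1, Trp53inp1, Bax, Bbc3, Aen, Phlda3, Sesn2 and Zmat3. These 10 genes were taken by symbol from a table of 17181 genes, without use of their values, and all 10 were among the 13074 genes that were tested. The tumours came from 4T1, a triple-negative mammary cancer line of the mouse that was injected subcutaneously into both flanks. 4T1 cells are reported to lack functional p53. A tumour also holds host cells, and the values below are sums over all cells of each tumour. Fewer cells of a type and less RNA per cell cannot be told apart in such samples.

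Treatment began at a tumour volume of about 100 mm3, and tumours were collected after 12 days of it. Vehicle was a sodium lactate solution with corn oil and DMSO (n = 2, called untreated in the sample titles and vehicle in the treatment label). OPG-Fc, a decoy receptor that binds RANKL, was injected intraperitoneally in 3 doses of 10 mg/kg per week (n = 3). Palbociclib, which blocks the cell cycle kinases CDK4 and CDK6, was given by mouth at 30 mg/kg per day (n = 3). The combination group received both drugs at these doses (n = 3). The labels give the genotype as wild type. The design text names NSG mice, a strain without lymphocytes of its own, as hosts, while the series title calls the model syngeneic. No label says which tumours came from the same animal. The sample descriptions give combination replicates 1 and 2 the same first number, and OPG-Fc replicates 2 and 3 likewise. What that number marks is not stated, so a group of 3 tumours may stem from fewer than 3 mice, and the p-values rest on the spread between tumours alone. Expression was deposited as FPKM, a fragment number adjusted for transcript length and library size. FPKM can be compared between genes because it is given per length, and the read depth behind them is unknown.

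p53 is a tetrameric transcription factor that is kept scarce by the ubiquitin ligase Mdm2 and becomes stable after DNA damage and other stress. It then binds response elements near genes of cell cycle arrest, apoptosis, DNA repair and metabolism, and Mdm2 is itself a target, which closes a feedback loop. In tumours with mutant p53 the transcription of Trp53 usually continues, and the targets can also be transcribed under other factors, so their RNA is not a measure of p53 activity alone.

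The tissue make-up of vehicle replicate 2 differed from that of every other library, and results are therefore given with and without it. Its 8 epithelial markers summed to 55.6 FPKM, against 2416 to 3579 elsewhere, so marker transcripts of the labelled epithelial cell type were weakly represented in it. The summed FPKM of 5 B cell markers was 5448 in vehicle replicate 2, 626 in OPG-Fc replicate 2, and 0.44 to 14.9 in the others. Skin markers summed to 1041 and 912 in palbociclib replicates 1 and 3 and to 2.87 to 236 elsewhere. The cytosolic ribosomal protein genes made up 21.0% to 24.3% of summed FPKM in the vehicle and OPG-Fc tumours and 27.6% to 35.3% in the palbociclib and combination tumours. Summed FPKM over all genes ran from 576699 in OPG-Fc replicate 1 to 864670 in combination replicate 3. The FPKM values of single tumours below are as deposited. Splits between groups that do not hold after division by summed FPKM are named for Trp53, Phlda3 and Cdkn1a. Other orderings of tumours and splits were not checked in this way.

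The response element of p53 is a pair of decamers of a loose consensus, and promoter windows of the 10 genes were searched for it because targets and Trp53 itself are compared here. RefSeq promoter windows of the build GRCm38.p6, from 250 bases before to 50 bases after a transcription start, were at hand for 8 of the 10 genes (Zmat3 and Trp53inp1 are named only). The consensus decamer of 10 bases reads the same on both strands. At least 1 exact copy was found in the windows of 5 of these 8 genes (62.5%), in 878 of 10383 tested genes with a window (8.46%), and in 8 of 27 other listed p53 targets (29.6%). The matches are shown with their flanks, because they are a sequence feature that 5 of the 8 genes share. The letters are those of the RefSeq reference and not of the 4T1 genome. Capitals mark the exact decamer, and each stretch is written 5′ to 3′ on the strand of its gene.
Trp53, chr11:69580259-69580318, plus strand: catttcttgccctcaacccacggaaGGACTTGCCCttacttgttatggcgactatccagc
Mdm2, chr10:117710910-117710969, minus strand: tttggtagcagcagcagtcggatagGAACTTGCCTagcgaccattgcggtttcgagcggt
Ccng1, chr11:40755437-40755496, minus strand: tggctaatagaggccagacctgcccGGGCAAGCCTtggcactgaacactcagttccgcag
Bax, chr7:45467065-45467124, minus strand: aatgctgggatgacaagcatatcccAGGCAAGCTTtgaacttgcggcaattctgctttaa
Aen, chr7:78895927-78895956, plus strand: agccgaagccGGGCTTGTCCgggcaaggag

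Counted from the start site, the first base of the decamer lay at -75 in Trp53, -186 in Mdm2, -185 in Ccng1 and -201 in Bax. In Aen it lay at -121 from 1 annotated start and at +11 from another, with the start base counted as +1. The windows of Phlda3, Sesn2 and Bbc3 held no exact decamer, which says only that these letters are not in these windows. A pair of exact decamers with a spacer of at most 13 bases was found in 0 of the 8 genes and in 0.048% of the tested genes. A pair with at most 2 mismatches was found in Ccng1, with 1 mismatch, and in Bax, with 2, against 4.6% of the tested genes. A match is a description of sequence, not evidence of binding in these tumours.

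Trp53 RNA was present in every tumour. Its FPKM was 33.82 and 95.49 under vehicle, 33.45, 46.80 and 34.75 under OPG-Fc, 36.76, 36.56 and 36.62 under palbociclib, and 42.77, 40.01 and 51.03 under the combination. Vehicle replicate 2 was 2.60 times the median of the other 10 libraries, and these 10 differed by at most 1.53-fold. The 3 palbociclib tumours were almost equal in FPKM, at 36.6 ± 0.103 (mean ± SD). All lay below the 3 combination tumours, at 44.6 ± 5.73, as for 13.7% of the tested genes. Summed FPKM over all genes differed between these tumours, at 653354, 754480 and 651306 under palbociclib and 704882, 717068 and 864670 under the combination. Divided by these sums, palbociclib replicate 2 falls below palbociclib replicates 1 and 3, and so does combination replicate 2. The near-equality and the split therefore hold only for FPKM as deposited. Without vehicle replicate 2 the 3 highest tumours for Trp53 were combination replicate 3, OPG-Fc replicate 2 and combination replicate 1. A processed Trp53 pseudogene exists in the mouse genome and Wrap53 overlaps the start of Trp53 on the other strand, and how reads shared with them were assigned is not given in the sources used here.

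Mdm2, the ligase that marks p53 for degradation, had the narrowest range of the 10 genes relative to its level over all 11 tumours. Its FPKM was 24.52 and 33.58 under vehicle, 29.48, 23.23 and 26.48 under OPG-Fc, 24.40, 26.88 and 28.39 under palbociclib, and 23.99, 31.55 and 18.93 under the combination. The 4 groups overlapped, and the lowest and 2nd highest tumours were both from the combination group.

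Ccng1, which encodes cyclin G1, a cyclin that recruits a phosphatase to Mdm2, was highest in vehicle replicate 2. Its FPKM was 23.60 and 59.42 under vehicle, 28.06, 25.95 and 24.36 under OPG-Fc, 18.87, 23.05 and 20.54 under palbociclib, and 25.17, 26.89 and 17.45 under the combination. All 3 palbociclib tumours lay below both vehicle tumours, as for 20.2% of the tested genes. The distance from vehicle replicate 1 was small, 23.05 against 23.60.

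Trp53inp1, a nuclear protein that promotes p53 phosphorylation and cell death and also acts in autophagy, had the widest range. Its FPKM was 5.88 and 113.90 under vehicle, 5.88, 14.76 and 5.08 under OPG-Fc, 4.34, 4.62 and 5.13 under palbociclib, and 3.61, 3.88 and 2.47 under the combination. The value in vehicle replicate 2 was 23.5 times the median of the other 10 libraries, and OPG-Fc replicate 2 came next. These were the 2 libraries with the highest summed FPKM of B cell markers, and in the 9 other libraries Trp53inp1 lay within 2.47 to 5.88. Without both of them its log2 fold change of FPKM + 1 for OPG-Fc against vehicle was -0.09, against -1.69 with all libraries. OPG-Fc replicate 2 was also the highest library for summed adipocyte markers, at 2389 FPKM. The part of B cells or of other cell types in the level of Trp53inp1 was not tested. The 3 combination tumours lay below all 8 others, as for 1.61% of the tested genes.

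**Figure D1:**
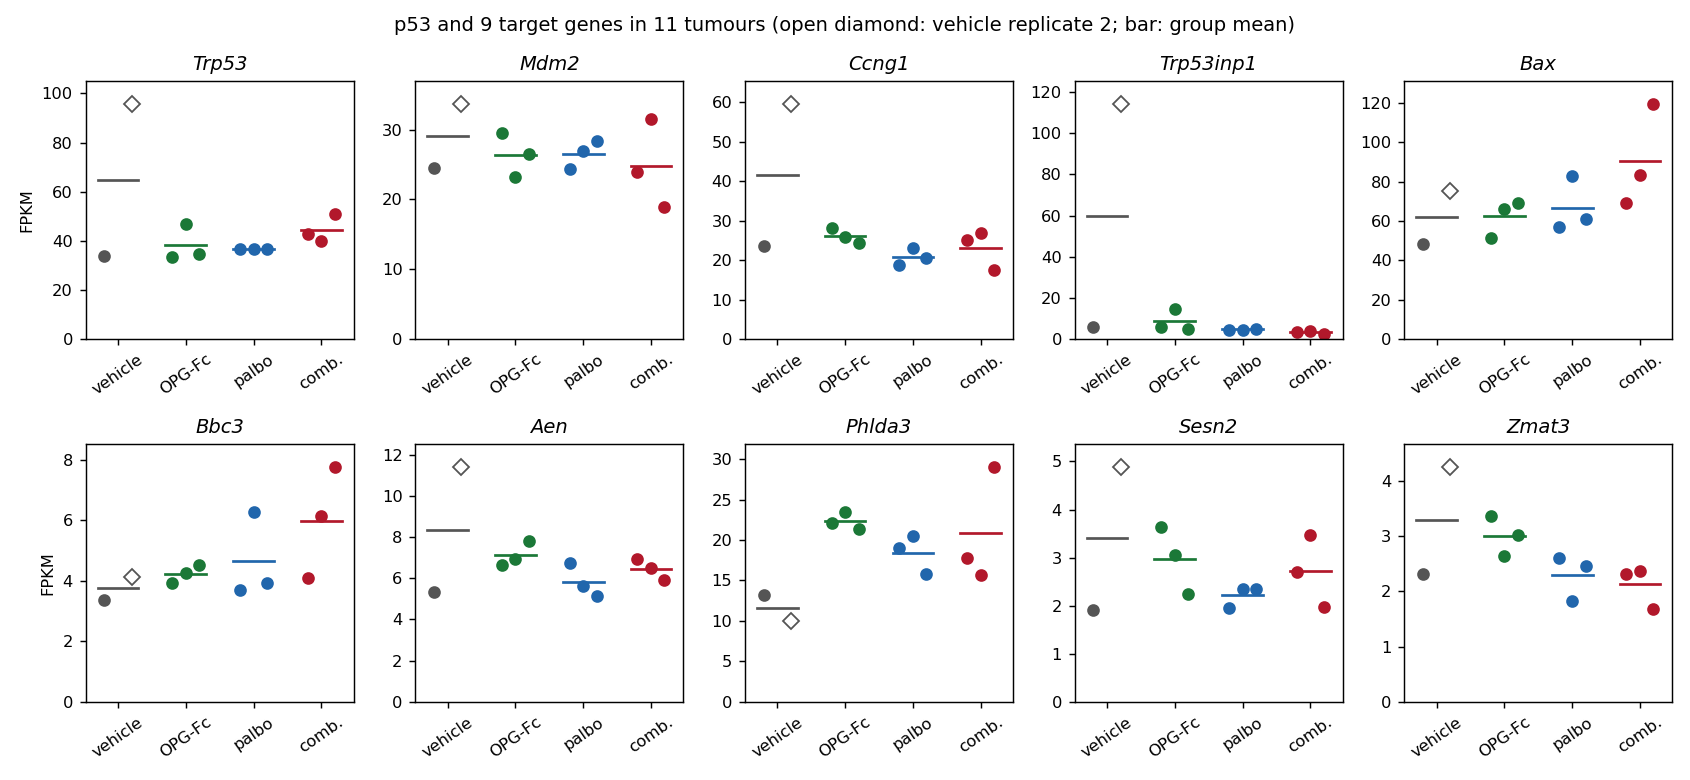
FPKM (linear axis from 0, a scale of its own in each panel) of p53 and 9 target genes by group, with 1 point per tumour and a bar at the group mean; palbo is palbociclib and comb. the combination. The open diamond, vehicle replicate 2, is the highest of 11 points in 7 panels and the lowest in the panel of Phlda3.

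Bax, the protein that opens the outer mitochondrial membrane in apoptosis, had the highest FPKM of the 10 genes in every tumour except vehicle replicate 2, where Trp53inp1 and Trp53 were above it. Its FPKM was 48.56 and 75.44 under vehicle, 51.53, 66.28 and 69.41 under OPG-Fc, 56.88, 82.72 and 60.99 under palbociclib, and 69.21, 83.27 and 119.31 under the combination. The combination mean was 90.6 ± 25.8 (SD) against 62.4 ± 9.55 under OPG-Fc and 66.9 ± 13.9 under palbociclib, and the combination overlapped each other group.

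Bbc3, which encodes Puma, a BH3-only protein that acts upstream of Bax, was about an order of magnitude lower in FPKM. Its values were 3.35 and 4.14 under vehicle, 3.93, 4.27 and 4.51 under OPG-Fc, 3.71, 6.27 and 3.94 under palbociclib, and 4.08, 6.13 and 7.75 under the combination. The 3 highest tumours for Bbc3 and for Bax were the same, namely combination replicates 3 and 2 and palbociclib replicate 2. These tumours also had the highest ribosomal protein shares, 35.3%, 30.0% and 33.6% of summed FPKM, and the part of this share in the levels of Bax and Bbc3 was not tested. The median length over all annotated transcripts of a gene was 674.5 bases for Bax and 683 bases for Bbc3, against 1405 bases over the tested genes. By the same measure it was 621 bases for Aen, 919 bases for Mdm2 and 1002 bases for Phlda3. The part of transcript length in these levels was not tested.

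Aen, an exonuclease that degrades DNA in apoptosis, and Phlda3, which competes with the kinase Akt for membrane lipids, complete the death-related targets. The FPKM of Aen was 5.34 and 11.39 under vehicle, 6.63, 6.94 and 7.79 under OPG-Fc, 6.75, 5.60 and 5.14 under palbociclib, and 6.91, 6.49 and 5.93 under the combination. In the 3 tumours that were highest for Bax and Bbc3, Aen was below its median of 6.63. The FPKM of Phlda3 was 13.15 and 9.99 under vehicle, 22.13, 23.43 and 21.33 under OPG-Fc, 18.98, 20.52 and 15.78 under palbociclib, and 17.78, 15.71 and 29.00 under the combination. The Phlda3 level in vehicle replicate 2 was 0.506 times the median of the other 10 libraries. Divided by summed FPKM, Phlda3 lies higher in vehicle replicate 1 than in combination replicate 2. In FPKM as deposited, both vehicle tumours lay below all 9 treated tumours for Phlda3, as for 5.44% of the tested genes. Summed skeletal muscle markers split the tumours the same way, at 15.3 and 5.77 FPKM under vehicle, 31.0 to 279 under OPG-Fc, 59.6 to 221 under palbociclib and 56.1 to 332 under the combination, and their part in the level of Phlda3 was not tested.

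Sesn2 is a stress-induced inhibitor of mTORC1 signalling, and Zmat3 an RNA-binding zinc finger protein that regulates splicing. They had the lowest FPKM in every tumour except vehicle replicate 2, where Bbc3, at 4.14, was below both. Sesn2 was at 1.92 and 4.88 under vehicle, 3.63, 3.06 and 2.25 under OPG-Fc, 1.95, 2.35 and 2.35 under palbociclib, and 2.71, 3.46 and 1.98 under the combination. Zmat3 was at 2.32 and 4.25 under vehicle, 3.37, 2.64 and 3.02 under OPG-Fc, 2.61, 1.82 and 2.46 under palbociclib, and 2.32, 2.37 and 1.69 under the combination. For Zmat3 every OPG-Fc tumour lay above every combination tumour, as for 23.5% of the tested genes. Its lowest tumours were combination replicate 3 and palbociclib replicate 2, the 2 libraries with the highest ribosomal protein shares.

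**Figure D2:**
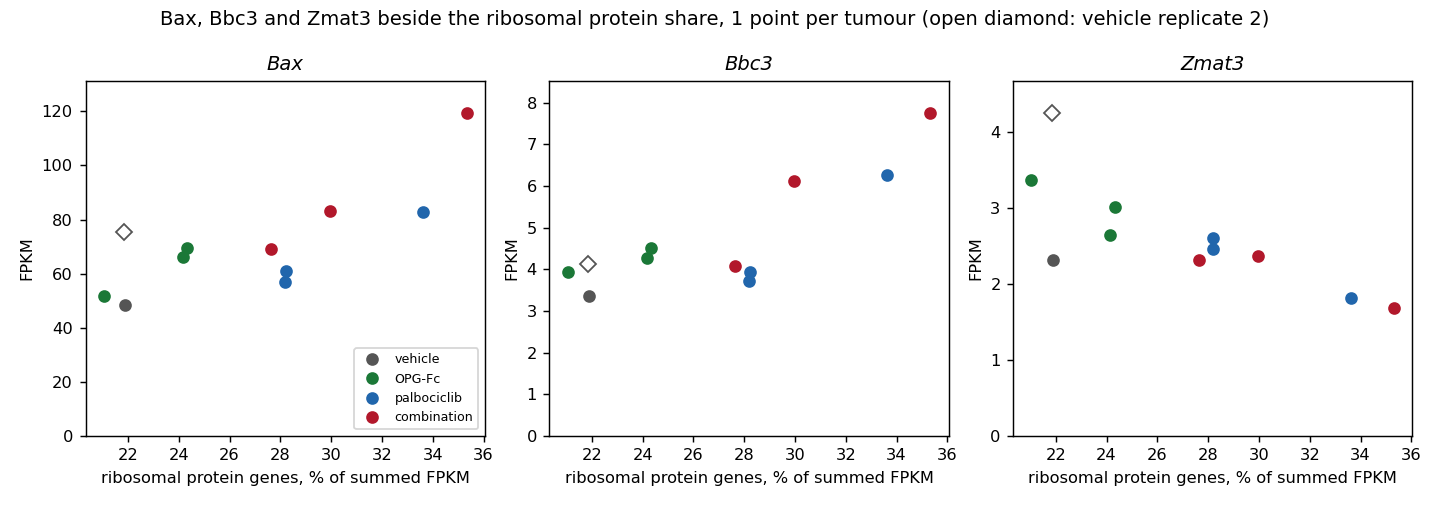
FPKM of Bax, Bbc3 and Zmat3 (linear axes from 0) against the percent of summed FPKM held by 86 ribosomal protein genes (axis not from 0), 1 point per tumour and an open diamond for vehicle replicate 2. The 3 genes were picked after their values were seen, and combination replicate 3, at 35.3%, is the highest point for Bax and Bbc3 and the lowest for Zmat3.

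Across the 10 genes, vehicle replicate 2 held the highest of 11 values for 7 (70.0%), namely Trp53, Mdm2, Ccng1, Trp53inp1, Aen, Sesn2 and Zmat3, against 34.8% of the tested genes. It held the lowest value for 1 of them, Phlda3, against 29.5% of the tested genes. Its level was at least double the median of the other 10 libraries for Trp53, Ccng1, Sesn2 and Trp53inp1 in FPKM. On the scale of log2(FPKM + 1), which shrinks differences at low levels, 3 of the 10 genes (30.0%) reached a difference of 1, against 14.5% of the tested genes. The median difference on this scale was 0.67 for the 10 genes and 0.05 for all tested genes. Combination replicate 3 came next in extremes, with the highest value for Bax, Bbc3 and Phlda3 and the lowest for Mdm2, Ccng1, Zmat3 and Trp53inp1. Of the tested genes 17.7% were highest there, and the share that was lowest there was not counted.

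**Figure D3:**
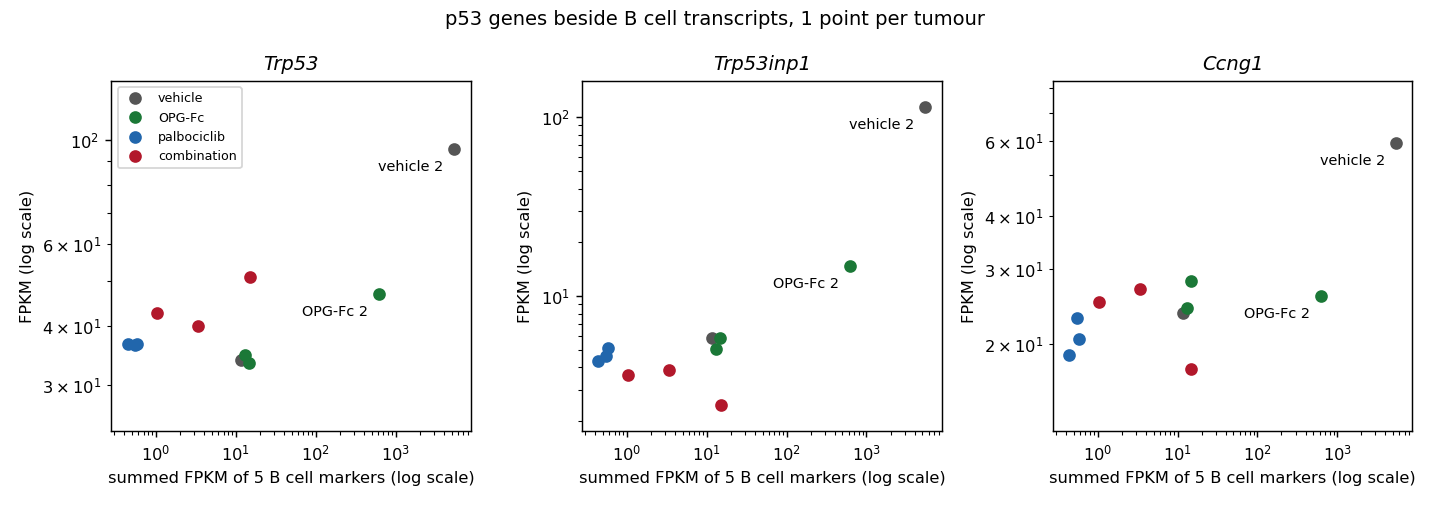
FPKM of Trp53, Trp53inp1 and Ccng1 against the summed FPKM of 5 B cell markers (all axes logarithmic), 1 point per tumour coloured by group. Vehicle replicate 2, at 5448 on the horizontal axis, is the highest point in each panel, and OPG-Fc replicate 2, at 626, is 2nd for Trp53inp1 but not for Ccng1.

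For palbociclib against vehicle, 0 of the 10 genes passed an adjusted p of 0.05 in limma over all tested genes, with all 11 libraries, where 0.0% of all genes were called, or without vehicle replicate 2, where 0.0% were called too. Unadjusted p-values under 0.05 were found for 3 of the 10 with all libraries (28.1% of all genes) and for 0 without vehicle replicate 2 (9.68% of all genes). The median log2 fold change of the 10 genes was -0.36 and turned to 0.11 without vehicle replicate 2, and that of all genes was -0.04 and -0.03. Phlda3 had the smallest p, with a log2 fold change of FPKM + 1 of 0.63 ± 0.24 (SE, limma adjusted p = 0.161) and 0.45 ± 0.28 (adjusted p = 0.609) without that library. Ccng1 had -0.83 ± 0.33 (adjusted p = 0.163) and -0.18 ± 0.23 (adjusted p = 0.808). Trp53 had -0.62, with a 95% interval of -1.41 to 0.16, and 0.11 (-0.34 to 0.57) without that library. The vehicle group was 1 tumour in the fit without that library, assumed to vary like the other groups. Between palbociclib and vehicle the groups did not overlap for Phlda3, which was higher, as in 16.4% of the tested genes. Nor did they for Ccng1 and Trp53inp1, which were lower, as in 20.2%.

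For OPG-Fc against vehicle, 0 of the 10 genes passed in limma, against 0.0% of all genes with all libraries and 0.00765% (1 gene) without vehicle replicate 2. Phlda3 had an unadjusted p under 0.05 in both fits, and the other 9 genes in neither, against 10.2% and 12.5% of all genes. Its log2 fold change was 0.90 ± 0.24 (SE, adjusted p = 0.471) and 0.72 ± 0.28 (adjusted p = 0.332) without that library, and its 3 OPG-Fc tumours lay within 21.33 to 23.43 FPKM. Phlda3 was higher in all OPG-Fc than in both vehicle tumours, as were 12.7% of the tested genes. Trp53inp1 had -1.69 ± 0.92 (adjusted p = 0.476), which turned to 0.34 ± 0.44 (adjusted p = 0.843) without vehicle replicate 2. All 10 genes then had a fold change above 0, with a median of 0.30 against 0.05 over all genes, and the whole vehicle group was 1 tumour in that fit, assumed to vary like the other groups. With all libraries the median was -0.10.

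For the combination against vehicle, 0 of the 10 genes passed in limma, against 0.0% of all genes with all libraries and 0.0612% (8 genes) without vehicle replicate 2. Unadjusted p-values under 0.05 were found for Phlda3 and Trp53inp1 with all libraries, against 29.6% of all genes, and for Bax without vehicle replicate 2, against 23.1%. Phlda3 had a log2 fold change of 0.76 ± 0.24 (SE, adjusted p = 0.0987) and 0.58 ± 0.28 (adjusted p = 0.253). Trp53inp1 had -2.72 ± 0.92 (adjusted p = 0.107) and -0.69 ± 0.44 (adjusted p = 0.37). Bax had 0.54, with a 95% interval of -0.09 to 1.17, and 0.85 (0.16 to 1.54, adjusted p = 0.155) without vehicle replicate 2. In the fit without vehicle replicate 2 the vehicle group was 1 tumour, assumed to vary like the other groups. That tumour, vehicle replicate 1, was the lowest of all 11 for Bax, at 48.56 FPKM. The median over the 10 genes was -0.24 and 0.28 in the 2 fits, so its sign rested on vehicle replicate 2. In FPKM as deposited, Phlda3 and Trp53inp1 did not overlap between the groups, as in 18.0% of the tested genes for higher and 17.8% for lower values. For Phlda3 this does not hold after division by summed FPKM.

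The 3 comparisons with vehicle share its 2 tumours, and leaving out vehicle replicate 1 in place of replicate 2 made calls appear. The vehicle group was then the lymphoid-rich library alone, and 52.0%, 40.3% and 50.8% of all genes were called for palbociclib, OPG-Fc and the combination. Of the 10 genes 7, 5 and 6 were called. Phlda3 was higher under each treatment, and Ccng1, Trp53, Trp53inp1 and Aen were lower under each. Zmat3 was lower under palbociclib and the combination, and Sesn2 under palbociclib. These calls set the treated tumours against 1 tumour.

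**Figure D4:**
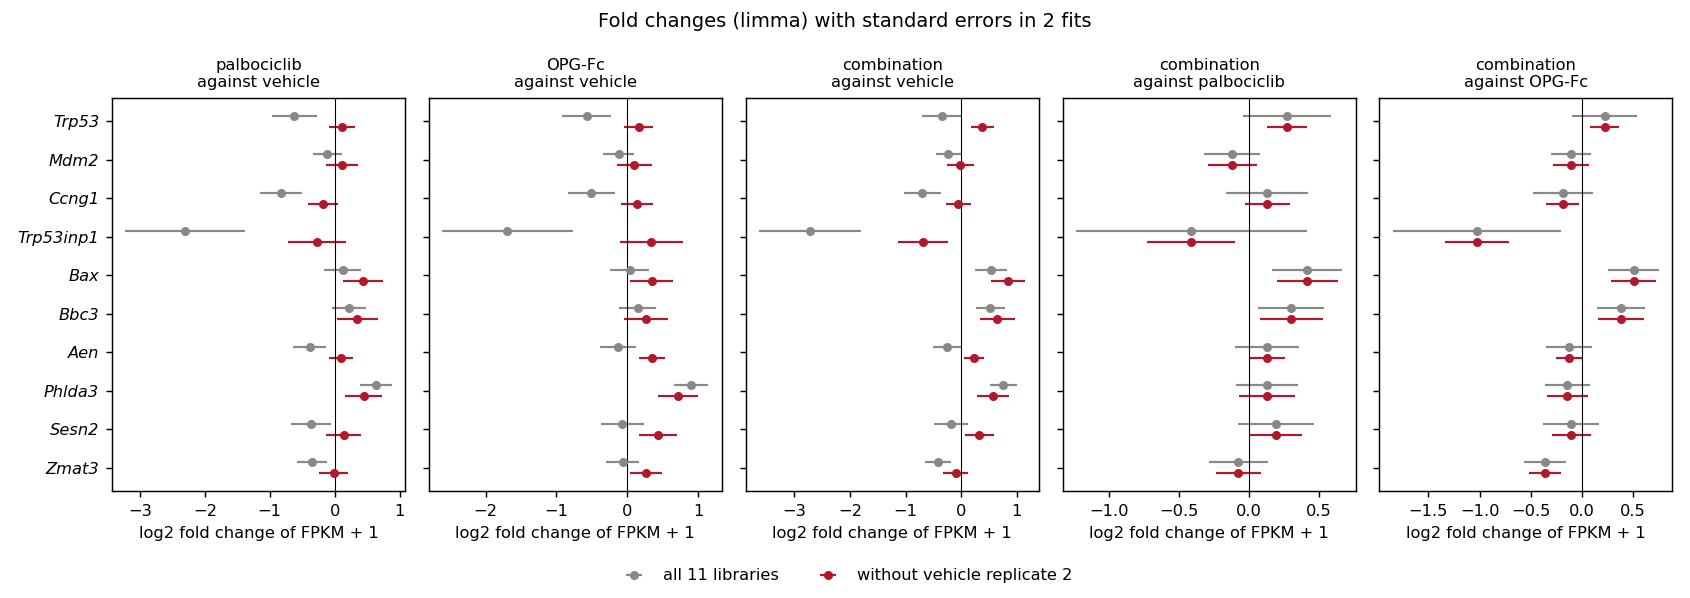
Log2 fold changes of FPKM + 1 from limma with bars of 1 standard error for the 10 genes in 5 comparisons (horizontal axes differ between panels), with all 11 libraries in grey and without vehicle replicate 2 in red. In the 3 comparisons with vehicle Trp53inp1 moves most between the fits, from -1.69 to 0.34 for OPG-Fc, and in the comparisons without vehicle the fold changes are equal and only the errors differ.

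The combination against palbociclib asks what OPG-Fc adds to palbociclib, and vehicle tumours enter it only through the estimate of the spread. Here 0 of the 10 genes passed in limma, against 0.0% of all genes in both fits, and 0 had an unadjusted p under 0.05, against 6.75% and 17.7% of all genes. Bax had a log2 fold change of 0.41 ± 0.25 (SE, adjusted p = 0.743), or ± 0.22 (adjusted p = 0.337) without vehicle replicate 2. Bbc3 had 0.30 ± 0.23 (adjusted p = 0.787), or ± 0.22 (adjusted p = 0.479). Without the 2 palbociclib tumours rich in skin markers the value of Bbc3 turned to -0.09, because the remaining palbociclib tumour was the highest of the 3 for Bbc3. In FPKM as deposited, Trp53 was higher in all 3 combination tumours than in all 3 palbociclib tumours, as were 13.7% of the tested genes. Its log2 fold change was 0.27, with a 95% interval of -0.43 to 0.97, or -0.05 to 0.59 without vehicle replicate 2. Trp53inp1 was lower in all 3 combination than in all 3 palbociclib tumours, as were 7.04% of the tested genes. It had -0.41 (-2.26 to 1.43), with -1.12 to 0.29 without vehicle replicate 2. The median over the 10 genes was 0.13, against 0.02 over all genes.

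The combination against OPG-Fc asks what palbociclib adds to OPG-Fc. Of the 10 genes 0 passed in limma, against 0.0994% of all genes (13) with all libraries and 4.7% (615) without vehicle replicate 2. Leaving out any treated tumour took the 13 to 0. Unadjusted p-values under 0.05 were found for 0 of the 10 genes with all libraries, against 15.5% of all genes. Without vehicle replicate 2 they were found for Trp53inp1, Bax and Zmat3, against 31.3% of all genes. Trp53inp1 had a log2 fold change of -1.03 ± 0.82 (SE, adjusted p = 0.563) and, with the same estimate, ± 0.31 (adjusted p = 0.0756). Bax had 0.51 ± 0.25 (adjusted p = 0.354), or ± 0.22 (adjusted p = 0.148). Zmat3 had -0.36 ± 0.21 (adjusted p = 0.415), or ± 0.16 (adjusted p = 0.152). Zmat3 and Trp53inp1 were lower in all 3 combination than in all 3 OPG-Fc tumours, as were 23.5% of the tested genes. The median over the 10 genes was -0.12, against -0.07 over all genes.

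Palbociclib averaged over the presence of OPG-Fc gave 0 calls among the 10 genes in limma, against 2.83% of all genes (370) with all libraries and 3.91% (511) without vehicle replicate 2. Unadjusted p-values under 0.05 were found for Trp53inp1, Ccng1 and Zmat3, against 33.9% of all genes, and without vehicle replicate 2 for Bax and Trp53inp1, against 28.5%. Trp53inp1 had the smallest p with all libraries, at -1.67 ± 0.62 (SE, adjusted p = 0.107), and -0.65 ± 0.27 (adjusted p = 0.155) without vehicle replicate 2. Bax had the smallest p without that library, at 0.47 ± 0.19 (adjusted p = 0.144), and 0.31 ± 0.19 (adjusted p = 0.246) with all. Ccng1 had -0.51 ± 0.22 (adjusted p = 0.143) and -0.18 ± 0.14 (adjusted p = 0.392). Mdm2 had -0.11, with a 95% interval of -0.44 to 0.22, and 0.00 (-0.34 to 0.34) without vehicle replicate 2. The 370 calls over all genes fell to between 2 and 33 when any OPG-Fc or combination tumour, or palbociclib replicate 1 or 3, was left out, and to 249 without palbociclib replicate 2. Without vehicle replicate 1 the averaged comparison called 6 of the 10 genes, all lower, against 53% of all genes.

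The interaction, which asks whether the difference that goes with palbociclib depends on OPG-Fc, also gave 0 calls among the 10 genes in limma, against 0.0% of all genes in both fits. Phlda3 alone had an unadjusted p under 0.05, with -0.77 ± 0.33 (SE, adjusted p = 0.647), and -0.59 ± 0.35 (adjusted p = 0.951) without vehicle replicate 2. Trp53 had 0.84 ± 0.47 (adjusted p = 0.647) and 0.11 ± 0.25 (adjusted p = 0.976). Unadjusted p-values under 0.05 made up 5.42% and 4.84% of all genes. Without vehicle replicate 1 the interaction called 4 of the 10 genes, Ccng1, Trp53, Trp53inp1 and Aen, all with values above 0, against 36.7% of all genes. Leaving out vehicle replicate 1 gave 0 calls among the 10 for the combination against palbociclib, against 0.0% of all genes, and 0 for the combination against OPG-Fc, against 4.77%.

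Other genes of the pathway were described from 33 further p53 targets, of which 30 were tested, and from 20 regulators and partners of p53, of which 19 were tested. With all libraries 0 of the 30 targets and 0 of the 19 regulators passed in limma in any of the 7 comparisons, of which 5 called 0.0% of all genes, 1 called 0.0994% and 1 called 2.83%. Without vehicle replicate 2 a single gene passed, Dram1, a lysosomal protein that promotes autophagy, which was lower with palbociclib averaged over OPG-Fc (log2 fold change -0.69 ± 0.14, SE, adjusted p = 0.0339), and with all libraries it had -1.08 ± 0.25 (adjusted p = 0.053). That comparison called 3.91% of all genes, so 1 of 30 is near the background. The FPKM of Dram1 was 10.44 and 32.31 under vehicle, 18.04, 16.85 and 16.62 under OPG-Fc, 6.88, 6.23 and 4.31 under palbociclib, and 12.13, 9.41 and 11.08 under the combination. The palbociclib tumours were the 3 lowest, as for 3.95% of the tested genes, and the combination lay between them and OPG-Fc. Summed macrophage markers were 445 to 609 FPKM under palbociclib, 653 to 1423 under the combination, 1003 to 1081 under OPG-Fc, and 665 and 1221 under vehicle, and their part in the level of Dram1 was not tested.

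Cdkn1a, the gene of the cell cycle inhibitor p21 and the best known p53 target, had an FPKM of 30.46 and 17.32 under vehicle and 34.37, 23.99 and 29.91 under OPG-Fc. It was at 31.12, 33.42 and 27.60 under palbociclib and at 37.13, 42.77 and 35.96 under the combination. In FPKM as deposited, the 3 combination tumours lay above all 8 others for Cdkn1a, as for 2.61% of the tested genes. Divided by summed FPKM, combination replicate 3 falls below every palbociclib tumour, so this split does not hold there. For the combination against vehicle its log2 fold change was 0.72 ± 0.24 (SE, adjusted p = 0.101), and 0.33 ± 0.20 (adjusted p = 0.351) without vehicle replicate 2. Vehicle replicate 2 held its lowest value, whereas for Trp53 it held the highest. Apaf1, the scaffold of the apoptosome, was at 9.40 and 10.95 under vehicle, 10.70, 8.23 and 8.21 under OPG-Fc, 6.22, 5.40 and 7.10 under palbociclib, and 6.95, 6.62 and 4.98 under the combination. For Apaf1 all 6 tumours given palbociclib lay below all 5 others, as for 3.72% of the tested genes, with -0.56 ± 0.13 for the averaged comparison (adjusted p = 0.0531) and -0.51 ± 0.14 (adjusted p = 0.0668) without vehicle replicate 2. Summed endothelial markers split the same 6 tumours, at 32.4 to 39.5 FPKM, from the others, at 50.2 to 96.5 FPKM, and their part in the level of Apaf1 was not tested.

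Perp, a p53 target of desmosomes in epithelia, was at 1.19 FPKM in vehicle replicate 2 against 85.34 to 247.69 elsewhere, alongside the epithelial markers. Steap3, a metalloreductase of iron uptake, was at 5.10 and 14.05 under vehicle, 12.94, 11.57 and 11.03 under OPG-Fc, 7.01, 4.92 and 4.82 under palbociclib, and 8.58, 7.98 and 7.67 under the combination. Its log2 fold change for OPG-Fc against vehicle was 0.42 ± 0.32 (SE, adjusted p = 0.544), and 1.07 ± 0.20 (adjusted p = 0.0864) without vehicle replicate 2. Of the 30 targets vehicle replicate 2 was highest for 15 (50.0%) and lowest for 12 (40.0%), against 34.8% and 29.5% of the tested genes.

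Mdm4, the relative of Mdm2 that masks the activation domain of p53, was at 29.29 and 58.75 FPKM under vehicle, 22.99, 26.18 and 26.25 under OPG-Fc, 26.51, 17.39 and 21.72 under palbociclib, and 19.61, 16.85 and 20.26 under the combination. Both vehicle tumours lay above all 9 treated tumours, as for 4.55% of the tested genes. For the combination against vehicle its log2 fold change was -1.10 ± 0.27 (SE, adjusted p = 0.0683), and -0.61 ± 0.22 (adjusted p = 0.151) without vehicle replicate 2. Atm, the kinase that signals double-strand breaks to p53, had -1.15 ± 0.29 (adjusted p = 0.0715) and -0.77 ± 0.30 (adjusted p = 0.173) in the same comparison. Ep300, an acetyltransferase and coactivator of p53, had -1.21 ± 0.32 (adjusted p = 0.0749) and -0.70 ± 0.30 (adjusted p = 0.203). Atm and Ep300 were lowest in combination replicate 3, at 2.17 and 4.09 FPKM, followed by palbociclib replicate 2, at 2.85 and 5.22. These libraries had the highest ribosomal protein shares, 35.3% and 33.6%, and the part of this share in the 2 genes was not tested. The median over the 19 regulators was -0.28 with all libraries and -0.32 without vehicle replicate 2, against -0.01 and 0.02 over all genes.

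Trp63, the p53 relative of basal epithelia, was at 6.43 and 5.94 FPKM in palbociclib replicates 1 and 3, at 1.59 in palbociclib replicate 2, and at 0.35 to 1.22 elsewhere. Its high libraries were the 2 with high skin markers, and the part of skin in its level was not tested. Cdkn2a encodes the Mdm2 inhibitor p19Arf as well as p16Ink4a. It was at 7.64 in vehicle replicate 2, at 3.09 in OPG-Fc replicate 2 and at 0.18 to 1.32 elsewhere. The same 2 libraries were highest for B cell markers and Trp53inp1, and the part of B cells in the level of Cdkn2a was not tested.

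**Figure D5:**
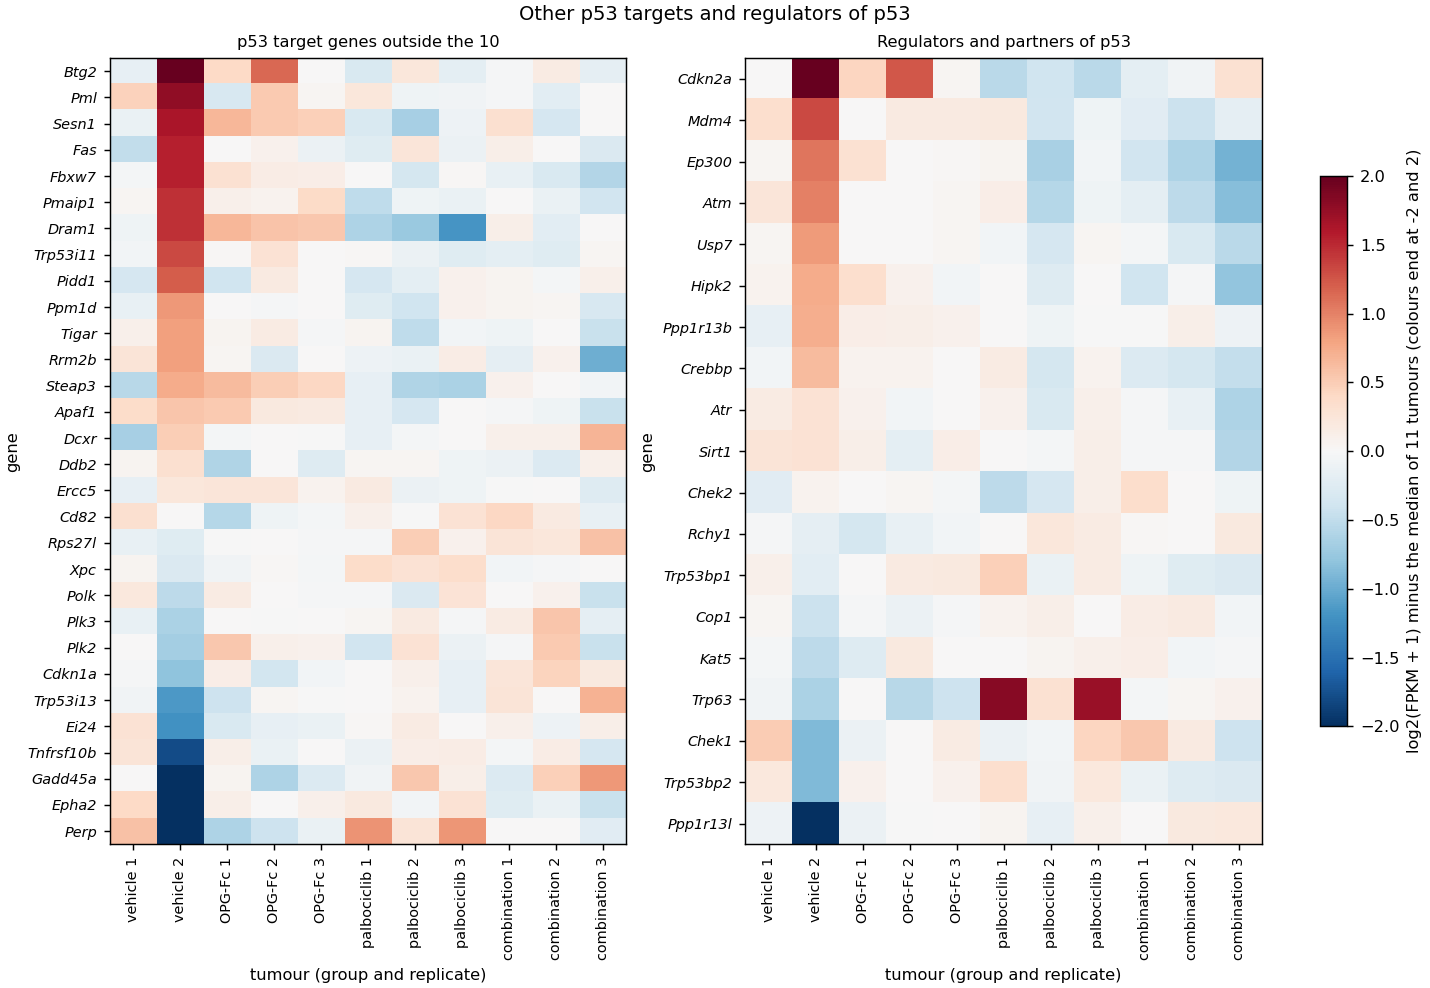
Log2(FPKM + 1) of 30 other p53 targets and 19 regulators and partners in 11 tumours, as the difference from the median of the 11 (red higher, blue lower, colours ending at -2 and 2), sorted by vehicle replicate 2. That column holds the strongest colours, the highest value for 15 targets and the lowest for 12, and Trp63 is high in palbociclib replicates 1 and 3.

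Among the genes whose pattern was most like that of Trp53 over the 10 libraries other than vehicle replicate 2 were Cyc1 (Pearson r of log2(FPKM + 1) = 0.962), Swi5 (0.956), Limd2 (0.942) and Ubb (0.942), and 38 of 13064 genes reached 0.9. Those most like Mdm2 were Rprd2 (0.948), Rsrc1 (0.937), Tubgcp5 (0.927), Lypla1 (0.924) and Gm2026 (0.914), and 12 genes reached 0.9. These correlations are descriptions over 10 libraries that share their scaling. Cyc1, a subunit of respiratory complex III, was at 93.46 FPKM in combination replicate 3 and 48.31 in vehicle replicate 1, and Trp53 was at 51.03 and 33.82 in the same tumours. Rprd2, which binds RNA polymerase II, was lowest in combination replicate 3, at 7.07, where Mdm2 was lowest too.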

How the data were processed

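RNA of 11 tumours was enriched for poly(A), copied with random primers and sequenced, per the labels' protocols. The authors deposited FPKM values in 1 table, made with HISAT, Bowtie2 and RSEM on the builds GRCm39 and mm39, per the submitters' processing notes, which give no versions or roles. Steps between values did not give whole reads, so depth is unknown. Values were taken as log2(FPKM + 1), on which fold changes of low genes are understated. The 13074 genes that reached 1 FPKM in 2 or more libraries were tested. A single limma model of the 4 groups (limma 3.58.1, R 4.3.3, variance prior with a trend) covered all 11 libraries and gave 7 comparisons, and the same model was run again without vehicle replicate 2. The threshold was an adjusted p of 0.05 by Benjamini-Hochberg, taken over every tested gene. Fold changes were given for the 2 of the 10 genes with the smallest p in each comparison, and for others chosen after their values were seen. For the further lists, genes among the 3 smallest p of a comparison were named. The 5 genes most alike in pattern were taken for Trp53 and for Mdm2, and 1 of them is not reported here. The fit was run on simulated data, with independent normal noise of the same spread for a gene in every library. Those data held no library that stands apart, so the run cannot speak to vehicle replicate 2. The 10 genes and the lists were chosen with earlier results of these data known. Promoters came from RefSeq (GRCm38.p6), and transcript lengths from GENCODE vM21, so no coordinate is of the authors' build. Figures were drawn with matplotlib 3.10.9.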

Additional observations from a re-analysis of the deposited data

How the results depend on the processing

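Over 25 alternatives (21 planned and 4 chosen after seeing the data), 0 of the 10 genes were called in all 166 results other than those without vehicle replicate 1. Leaving out each of the 11 libraries in turn, the number called ranged from 0 to 7 for palbociclib, 0 to 5 for OPG-Fc and 0 to 6 for the combination, each against vehicle, from 0 to 6 for palbociclib averaged over OPG-Fc and from 0 to 4 for the interaction. All upper ends came without vehicle replicate 1. Trp53inp1 for OPG-Fc against vehicle (-1.69 on the log2 scale) ranged from -3.72 to 0.34 when 1 library was left out. Its sign turned without vehicle replicate 2 (0.34), and also when this was joined to a length correction (0.41), quantile normalization (0.21) or the replicate block (0.23). Bbc3 for the combination against palbociclib turned from 0.30 to -0.093 without the 2 libraries rich in skin markers. Of the other results for named fold changes, 331 kept their sign and side of the threshold and 9, all without vehicle replicate 1, kept their sign and newly passed it. Over all genes, the 370 calls for palbociclib averaged over OPG-Fc became 0, and the 13 for the combination against OPG-Fc became 0, without the skin-rich libraries. In their deviations from group means, same-numbered tumours correlated from -0.41 to 0.53 and differently numbered ones from -0.53 to 0.43. Deviations from means of 2 or 3 tumours depend on each other, so these values cannot settle whether the numbers pair tumours. With the replicate number as a block 0 of the 10 genes were called in every comparison, and over all genes the 370 calls became 7 and the 13 became 0. Other scalings moved the median of all genes by at most 0.0943. With 2 or 3 tumours per group and unknown depth, the precision of low genes such as Sesn2, Zmat3 and Bbc3 cannot be stated beyond the spread between tumours.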
